A study of Mus musculus with 4 samples.

Results

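Conventional type 2 dendritic cells (cDC2) were described in single-cell RNA libraries of 4 mouse spleens, 307 cells of the 53945 that passed a filter on cell quality. A cell passed with at least 500 unique molecular identifiers (UMIs, counted transcript molecules) over 250 or more genes, if no more than 10% of its UMIs were mitochondrial. A passing cell was a member when at least 2 of the 5 genes Flt3, Zbtb46, Cd209a, Clec10a and Ffar2 were detected and Itgax had at least 1 UMI. It also had to hold fewer than 2 UMIs of Xcr1 and Clec9a together, 0 of Siglech, fewer than 3 of the B cell genes Cd79a, Ebf1, Pax5 and Ms4a1, and less than 0.5% of its UMIs in the granule genes Camp, Ngp and Ltf. The rule gave 58 cells in WT replicate 1, 79 in WT replicate 2, 70 in D3TA replicate 1 and 100 in D3TA replicate 2.

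The study compared wild-type (WT) mice with mice that carry, in every cell, 1 copy of a CRISPR/Cas9 knock-in of Ccnd3 in which alanine replaces threonine 283 of cyclin D3 (D3TA). All were female C57BL/6J mice, 2 of each genotype, of 12 and 16 months, and the labels do not say which library has which age. At these ages the knock-in mice have a severe myeloproliferative neoplasm. Each mouse gave 1 library, made on the 10x Genomics platform from a whole spleen suspension after red cell lysis, with no sorting, so p-values rest on 2 mice against 2.

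cDC2 are the dendritic cells that present antigen on MHC class II mainly to CD4 T cells. They depend on the receptor Flt3 and its ligand, express Sirpa, and in the mouse spleen many lie in the marginal zone bridging channels and need Notch2 and lymphotoxin signals. Mouse spleen cDC2 are described as a T-bet type (cDC2A), rich in Clec4a4, Esam and Cd4, and a monocyte-like type (cDC2B), rich in Clec12a, Ccr2 and Cx3cr1. Any dendritic cell can mature, turn on Ccr7 and move to the T cell zone.

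The cells carried cDC2 transcripts that the rule had not used, although as a list these were higher still in monocytes. Levels in this and the next paragraphs on cell classes are CPM, UMIs of a gene per 1000000 UMIs summed over the cells of a class in a library. Clec4a4, an inhibitory C-type lectin of splenic cDC2, stood at 127 and 71.7 CPM in the WT libraries and 54.5 and 65.3 in the D3TA libraries, against 0 to 8.72 CPM in cDC1 and 0.250 to 1.2 CPM in the other passing cells. Cd7 was at 144 to 213 CPM against 8.90 to 53.4 in cDC1, and Cd4 at 42.2 to 59.2 CPM against 1.70 to 10.4 in cDC1. Sirpa, the inhibitory receptor for CD47, was at 241 to 560 CPM against 33.9 to 95.1 in the other passing cells. Esam, an adhesion molecule of Notch-dependent cDC2, was low, at 23.1 and 15.1 CPM in WT and 2.68 and 11.2 in D3TA, and at 0.278 to 0.564 CPM in the other passing cells. Irf4, a transcription factor of cDC2, was at 17 to 37.5 CPM, below the 45 to 59.3 CPM of the other passing cells, which include B cells, and Mgl2 was at 20.7 CPM in D3TA replicate 2 and at or near 0 elsewhere. The 25 listed cDC2 genes outside the rule summed to 2738 to 3745 CPM in cDC2 and 1222 to 2558 CPM in cDC1. In the cells gated as monocytes the sum was higher than in cDC2 in every library, at 3336 to 5850 CPM. The comparison class, cDC1, was taken by at least 2 UMIs of Xcr1 and Clec9a together and held 42, 43, 47 and 127 cells.

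Defining genes of other classes were lower, and by how much depended on the gene. The 12 cDC1 markers, Xcr1 and Clec9a of the rule among them, summed to 1512 to 1933 CPM in cDC2 and 6710 to 9793 CPM in cDC1, and the cDC2 sum was 164 to 343% of that in the other passing cells. Cadm1, an adhesion molecule of cDC1, was at 5.36 to 52.1 CPM in cDC2 and at 1018 to 1667 CPM in cDC1. Irf8, the transcription factor that cDC1 need, was at 23.1 to 83.1 CPM in cDC2 and 865 to 1471 CPM in cDC1. Lyz2, a lysozyme of macrophages, monocytes and neutrophils, was at 13, 426, 417 and 524 CPM in cDC2 and at 6031 to 19092 CPM in cells gated as monocytes. The monocyte marker list summed to 482 to 1062 CPM in cDC2 and 7004 to 7406 CPM in the monocyte gate. That gate was chosen by genes of this list, so its high sum was set in advance. Against the other passing cells the cDC2 sum was 152 and 210% in WT and 33.9 and 50.4% in D3TA. The defining monocyte genes Vcan and Fcgr1 were at 0 in cDC2 of 3 and 2 libraries. Klk1 of plasmacytoid dendritic cells, Ncr1 of NK cells and Gcsam of cDC1 were at 0 in cDC2 of all 4 libraries, but other genes of their lists were present. The plasmacytoid markers, Siglech of the rule among them, summed to 211 to 298 CPM in cDC2, or 15.0 to 39.4% of the other passing cells. The NK cell markers summed to 43.8 to 194 CPM, or 22.2 to 38.4%. These sums per library do not tell how many members fit the label, and cells that differ are described further on.

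**Figure D1:**
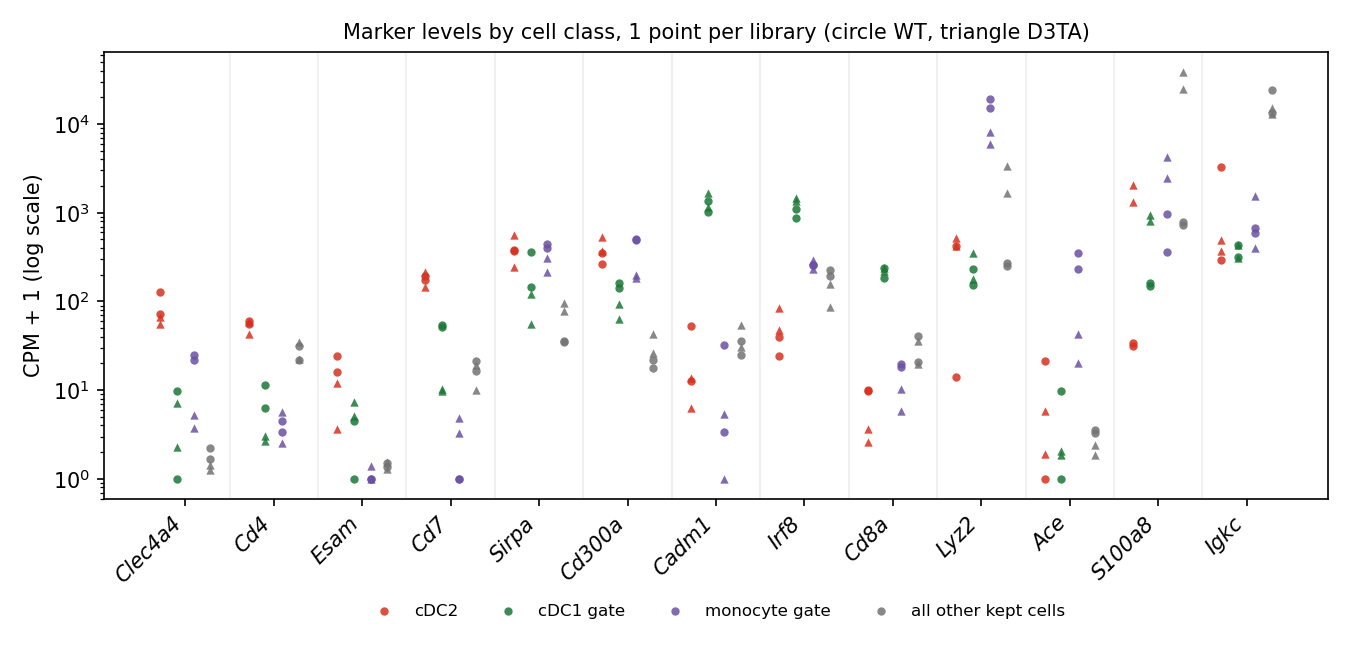
Level of 13 marker genes (vertical axis, CPM + 1, log scale) in cDC2, cDC1, cells gated as monocytes and the other passing cells, with 1 point per library, circles for WT and triangles for D3TA. Clec4a4, Cd4 and Cd7 are highest in cDC2, Cadm1, Irf8 and Cd8a in cDC1, and S100a8 and Igkc in the other passing cells.

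Near the thresholds the cells were less uniform. The 63 members with exactly 2 of the 5 genes had 4061 CPM of the class II gene H2-Ab1 and 1219 CPM of Lyz2, and the 244 with 3 or more had 5337 and 222 CPM. The 96 cells that missed only because 1 of the 5 genes was detected had 1313 CPM of H2-Ab1, and the 155 cells that missed only because Itgax had 0 UMIs had 935 CPM. Of the other near misses, 133 were held out by Xcr1 and Clec9a, 70 by B cell genes, 18 by Siglech and 12 by granule genes.

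The libraries differed in depth. WT replicate 1 held 22619 passing cells with a median of 1394 UMIs, and the other libraries 7876 to 12500 cells with medians of 7698 to 8111. The cDC2 themselves were more alike, with medians of 11756.5, 15785, 15536.5 and 11653 UMIs, although single members ranged from 723 to 61646. Summed over cDC2, a library held 692177 to 1324348 UMIs. No cDC2 barcode was shared between libraries, and the doublet caller Scrublet marked 0, 3, 1 and 3 members. In WT replicate 1 its automatic threshold marked 0 of all cells, so the caller had not worked there and the highest 1.47% of scores were taken as doublets.

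The share of cDC2 among passing cells showed no difference between genotypes beyond the spread of the libraries. In WT replicates 1 and 2 it was 0.256% (exact binomial 95% interval 0.195 to 0.331%) and 1.00% (0.795 to 1.25%). In D3TA replicates 1 and 2 it was 0.560% (0.437 to 0.707%) and 0.913% (0.744 to 1.11%), and all intervals cover counting error only. The means were 0.630% ± 0.528 (SD, n = 2) in WT and 0.737% ± 0.250 (SD, n = 2) in D3TA, and both D3TA libraries lay between the WT libraries (p = 1.0, two-sided exact permutation test; 2 libraries against 2 cannot give less than 0.3333). WT replicate 1 was lowest. In it 20.9% of the passing cells reached 5000 UMIs, against 70.6 to 79.1% in the others. With every cell thinned to 5000 UMIs before the rule was applied, shallower cells left out, the shares were 0.719% and 0.803% in WT and 0.601% and 0.925% in D3TA, and the D3TA libraries lay on either side of WT.

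Of all conventional dendritic cells, cDC2 made up 58.0% and 64.8% in WT and 59.8% and 44.1% in D3TA. The low value was that of D3TA replicate 2, which had 127 cDC1 beside its 100 cDC2. The means, 61.4% ± 4.78 and 51.9% ± 11.2 (SD, n = 2 each), gave p = 0.667 in the two-sided exact permutation test.

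**Figure D2:**
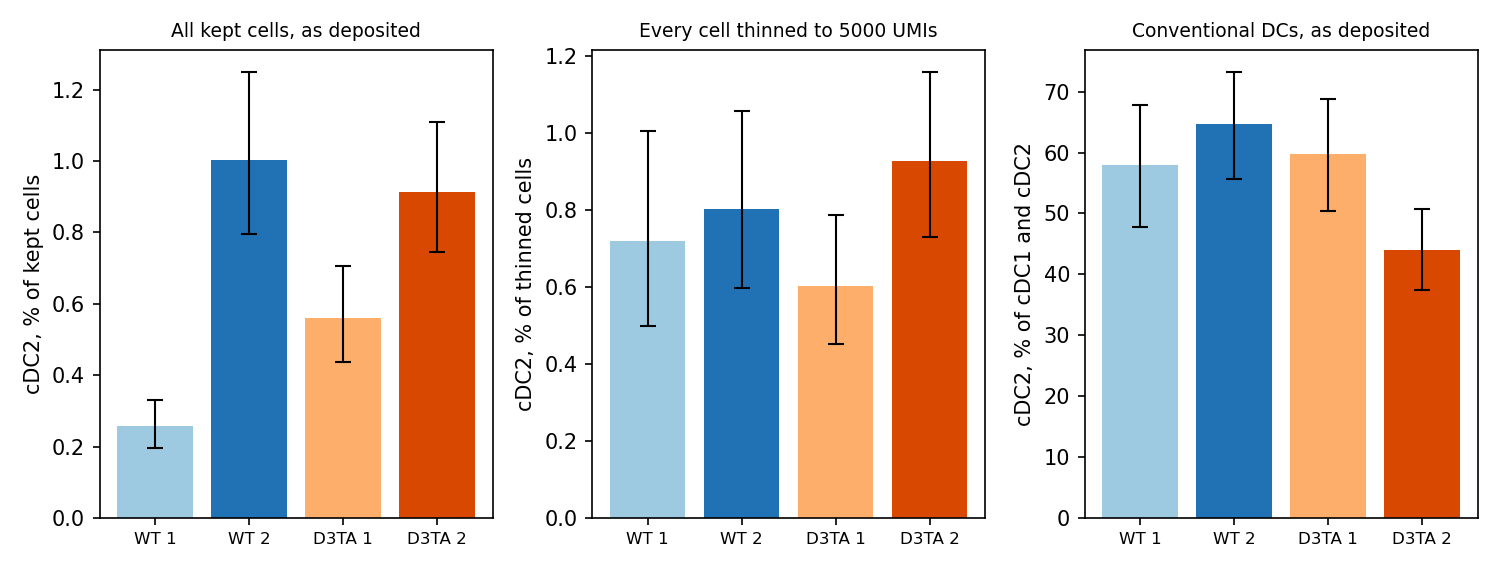
Shares in percent for each of the 4 libraries, with bars for exact binomial 95% intervals that cover counting error only. cDC2 of passing cells ranges from 0.256% to 1.00% as counted and from 0.601% to 0.925% with cells thinned to 5000 UMIs.

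Among themselves the cDC2 differed in some cDC2A and cDC2B genes and not in others. The 109 members with a Clec4a4 UMI and no Cd209a UMI (21, 27, 30 and 31 in WT replicates 1 and 2 and D3TA replicates 1 and 2) were set beside the 50 with Cd209a, a DC-SIGN type lectin, and no Clec4a4 (2, 14, 8 and 26). The Clec4a4 set was higher in Dtx1, a Notch target and regulator, at 145 against 18.4 CPM, in Tbx21, which encodes T-bet, at 64.1 against 21.4 CPM, and in Ltb, a lymphotoxin chain, at 430 against 168 CPM. The Cd209a set was higher in Ccr2, the chemokine receptor by which monocytes leave the marrow, at 398 against 0 CPM, in Cx3cr1 at 135 against 6.64 CPM, and in Lyz2 at 1499 against 69.5 CPM. Esam and Cd4, which are described for cDC2A, stood closer, at 14.5 and 59.2 CPM in the Clec4a4 set and 7.65 and 49.0 CPM in the Cd209a set. Ffar2 (379 and 158 CPM) and Clec10a (1.81 and 144 CPM) belong to the rule, and cells without Cd209a needed 2 of the other 4 rule genes, so their difference is partly set by the rule. H2-Ab1 was at 5946 CPM in the Cd209a set and 4840 CPM in the Clec4a4 set. These are levels over cells pooled from the libraries and chosen by their own transcripts, with no test.

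Single transcripts were sparse, and an undetected gene does not show an absent one. Thinned to 5000 UMIs, Clec4a4 was detected in 23 of 46, 16 of 76, 15 of 68 and 27 of 95 cDC2, and in 1 of 28, 0 of 36, 0 of 32 and 1 of 99 cDC1, a type that should lack it. Cd209a was detected in 9, 18, 6 and 27 of the same cDC2 and in 2, 4, 1 and 5 of the cDC1. In the same thinned cells Esam was detected in 6.17% of the 81 with Clec4a4 and 5.88% of the other 204, and Cd4 in 18.5% and 15.7%. At this depth Clec10a and Clec4a4 were not found together: Clec4a4 was detected in 0 of the 20 cells with Clec10a and in 30.6% of the other 265. Before thinning, Clec10a was above 0 in the Clec4a4 set, as given above. Ccr2 was detected in 28.3% of the 60 cells with Cd209a and in 6.22% of the other 225, and Cd4 in 18.3% and 16.0%.

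Another set carried the maturation program. The 18 members with 5 or more UMIs over Ccr7, Fscn1, Ccl22, Cacnb3, Nudt17 and Socs2 (4, 9, 2 and 3 by library) were chosen on those genes, and other genes not used in the choice were also high in them. Il4i1, an amino acid oxidase of mature dendritic cells, was at 1086 CPM against 42.5 CPM in the remaining 289, Relb, the NF-kappaB subunit, at 1464 against 288 CPM, and Ccl5 at 2708 against 348 CPM. Il12b, the p40 subunit of IL-12, was at 246 CPM against 0, and Cst3, cystatin C, at 6396 against 1243 CPM. H2-Ab1 was lower, at 3207 against 5253 CPM.

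A few members went against the label. In D3TA replicate 1, 2 cells with 5 or more UMIs of the neutrophil precursor genes Elane, Mpo and Prtn3 had a median of 51723 UMIs and only 116 CPM of H2-Ab1. A further group, 25 cells with 2 or more UMIs of monocyte or macrophage genes (1, 3, 9 and 12 by library), had 3101 CPM of Lyz2 and 4213 CPM of H2-Ab1. The 26 cells of either kind numbered 1, 3, 10 and 12 by library. Without them the D3TA minus WT difference in the cDC2 share of passing cells was 0.033 percentage points in place of 0.107.

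**Figure D3:**
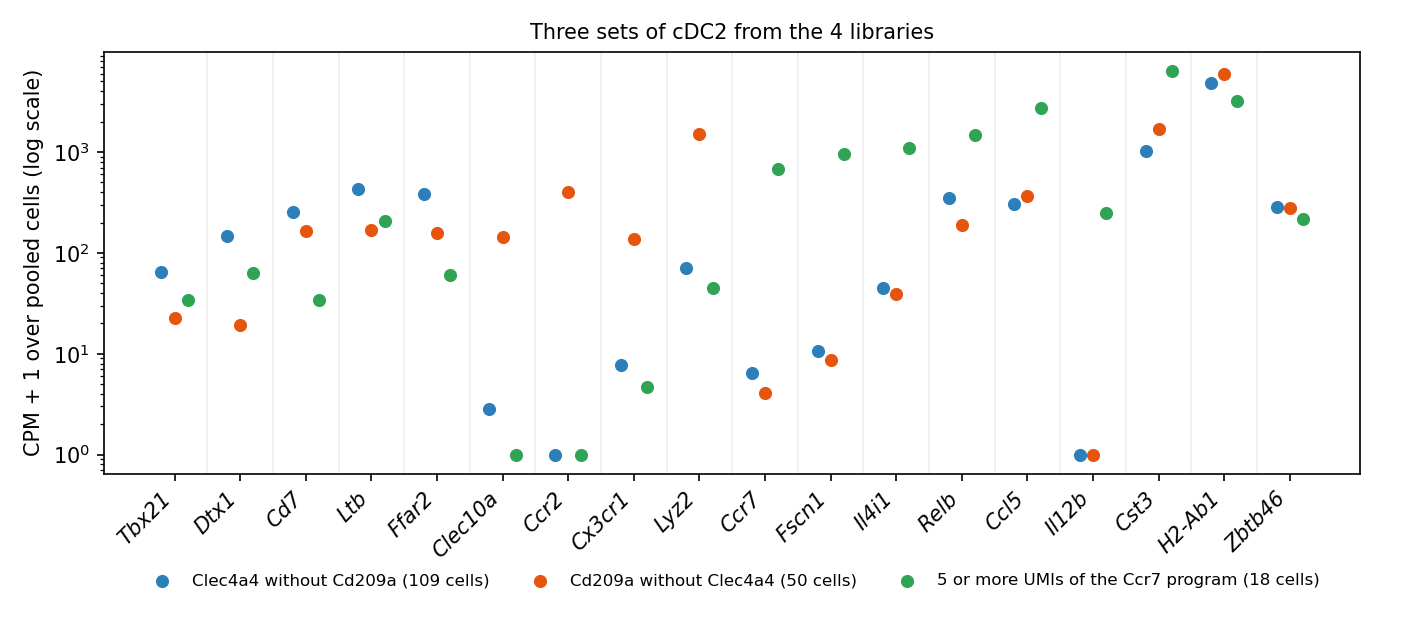
Level of 18 genes (vertical axis, CPM + 1 over pooled cells, log scale) in the cDC2 with Clec4a4 and no Cd209a (109 cells), with Cd209a and no Clec4a4 (50 cells) and with the Ccr7 program (18 cells); the last set can overlap the others. Ccr2, Cx3cr1 and Lyz2 are highest with Cd209a, Tbx21 and Dtx1 with Clec4a4, and Il4i1, Relb and Il12b in the Ccr7 program set.

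The shares of cDC2 with transcripts of the gene sets below could not be told apart by genotype. With members thinned to 1000 UMIs, 26.3% ± 4.98 of WT and 23.9% ± 1.52 of D3TA cDC2 had a UMI of Esam, Cd4, Clec4a4, Tbx21 or Dtx1 (SD, n = 2 each, p = 1.0, two-sided exact permutation test). A UMI of Clec12a, Cx3cr1, Ccr2, Mgl2 or Cd300a was found in 29.8% and 30.4% of WT and 41.4% and 36.0% of D3TA cDC2, a difference of 8.61 percentage points with no overlap that still gave the smallest exact permutation p, 0.3333. These gene sets do not part the cells into types. Not thinned, the means were 81.7% in WT and 78.0% in D3TA for the first set and 81.0% and 94.6% for the second. Thinned to 5000 UMIs, Cd300a alone was detected in 28 of 46 and 53 of 76 WT and 59 of 68 and 74 of 95 D3TA cDC2. The Ccr7 program genes had 2 or more UMIs in 1, 5, 1 and 3 cells, or 1.75%, 6.33%, 1.43% and 3.00%. At least 2 UMIs of the 25 G2/M phase genes were found in 12.3% and 11.4% of WT and 8.57% and 7.0% of D3TA cDC2, and that order turned with depth: at 5000 UMIs the shares were 26.1% and 15.8% in WT and 25.0% and 26.3% in D3TA. Without the members with monocyte, macrophage or precursor transcripts the difference at 1000 UMIs was -6.77 percentage points in place of -4.05, and that in the cDC2A gene share -0.051 in place of -2.38.

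Few genes were called between the genotypes in cDC2, which does not show that few changed. UMIs were summed over the members of each library, which makes the mouse the replicate, and edgeR's quasi-likelihood test with Benjamini-Hochberg adjustment called 16 of 9004 genes tested (0.178%) at an adjusted p under 0.05, 14 higher in D3TA (0.155%) and 2 lower (0.0222%). At an unadjusted p under 0.05 there were 485 genes (5.39%). DESeq2 called 32, the same 16 among them. On simulated counts the edgeR fit found 5% of 2-fold and 72% of 4-fold changes. The 2 groups of libraries did not overlap for 32.2% of all genes, 16.4% with both D3TA libraries higher and 15.8% with both lower, and the counts for gene lists given later stand against those shares.

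Of the 14 genes that rose, 10 were neutrophil or monocyte genes whose transcripts in cDC2 stood far below the level of the surrounding cells. S100a8, a calcium-binding protein that makes up much of the neutrophil cytosol, was at 30.3 and 34.4 CPM in WT and 2181 and 1284 in D3TA on the scale corrected by the trimmed mean of M values (TMM-scaled CPM), an increase of 5.73 ± 0.41 (SE) in log2 with an adjusted p of 0.000325 in edgeR. At least 1 UMI of S100a8 was in every D3TA member, 70 of 70 and 100 of 100, and in 24.1% and 19.0% of the WT members. The cDC1, also a type that should lack it, had a like pattern after thinning to 5000 UMIs, with S100a8 in 2 of 28 and 4 of 36 WT and in 30 of 32 and 85 of 99 D3TA cDC1. The unscaled levels in D3TA cDC2, 2044 and 1336 CPM, compare with 38837 and 24646 CPM in the other passing cells of the same libraries. Summed over the 16 neutrophil markers, cDC2 held 88.1 and 122 CPM in WT and 7606 and 3897 CPM in D3TA, which was 4.09 to 6.21% of the level in the other passing cells of each library. The cDC1 of the same libraries held 541 and 425 CPM in WT and 2656 and 2795 CPM in D3TA. RNA free in the droplets was not measured apart from the cells, and its part in these genes was not tested.

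All 15 neutrophil markers tested had both D3TA libraries above both WT libraries, and 9 were called. Camp, Ngp and Ltf are 3 of the 9, and since the rule limits their UMIs in every member their values are a description only. Of the 12 that the rule did not use, 6 were called, and Elane, Mpo and Prtn3 were not. In D3TA replicate 1, 1 member alone gave 3261 of the 8512 UMIs of the list and in D3TA replicate 2, 1 member gave 2395 of 4891. Without those cells and the highest cell of each WT library the sums were 63.7, 47.1, 4799 and 2017 CPM. The tenth gene was Chil3, a chitinase-like protein of monocytes and neutrophils, with 0 UMIs in both WT libraries and 65 and 117 UMIs in D3TA. Cacna1e, a calcium channel gene, was the other of the 2 genes that fell and likewise lay below the level of the other passing cells. Without the cells that Scrublet marked, Cacna1e (adjusted p = 0.308 in edgeR) and the neutrophil gene Retnlg (0.242) lost their calls, and Mmp8, another neutrophil gene, was too low to be tested.

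The other 5 called genes were Egr1, Cyp7b1, Cxcl10, Ifi204 and Hist1h2ae, each at a level in cDC2 not far below that of the other passing cells. They differed in how many cells carried them, and with members thinned to 5000 UMIs edgeR called none of the 5, Ifi204 then being too low to be tested.

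Egr1, a zinc finger transcription factor that is switched on within minutes of a stimulus, rose in many cells at a low level. Its level was 7.21 and 6.25 TMM-scaled CPM in WT and 48.6 and 94.2 in D3TA, 3.42 ± 0.47 (SE) higher in log2 with an adjusted p of 0.0200 in edgeR. Transcripts were found in 2 of 58 and 4 of 79 WT members and in 21 of 70 and 46 of 100 D3TA members, with at most 9 UMIs in 1 cell. With members thinned to 5000 UMIs the log2 difference was 2.82 (adjusted p = 0.149 in edgeR). The other passing cells held 14.1 and 15.2 CPM in WT and 43.3 and 52.9 CPM in D3TA, so cDC2 were below them in WT and beside or above them in D3TA. Egr1 lies on chromosome 18 from 34859823 to 34864984 (GRCm38, plus strand). The cDC1 of these mice showed the same pattern: thinned to 5000 UMIs, Egr1 was detected in 2 of 46, 2 of 76, 12 of 68 and 24 of 95 cDC2 and in 0 of 28, 1 of 36, 4 of 32 and 24 of 99 cDC1.

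Other genes of the same immediate early list moved the same way without passing the test. Fos, a subunit of the AP-1 factor, was at 5.77 and 18.8 TMM-scaled CPM in WT and 77.2 and 87.3 in D3TA (log2 difference 2.60 ± 0.43, edgeR adjusted p = 0.0652). Fosb, its paralog, was at 7.21, 12.5, 46.7 and 60.5 (2.36 ± 0.40, adjusted p = 0.0755), and Zfp36, which destabilizes cytokine mRNAs, at 44.7, 56.3, 105 and 180 (1.48 ± 0.34, adjusted p = 0.248). In all 3 the D3TA libraries lay above both WT libraries. Of the 19 listed genes tested, 1 was called, 14 had both D3TA libraries higher (73.7%) and 1 had both lower, and the median log2 difference was 0.49 against 0.02 over all genes. Of the thinned members, 17.4% and 25.0% in WT and 42.6% and 57.9% in D3TA held 10 or more UMIs of the list.

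Cyp7b1, an oxysterol hydroxylase that takes part in making the ligand of Gpr183, a receptor by which splenic cDC2 find their place, rose in a few cells. It stood at 5.77 and 1.56 TMM-scaled CPM in WT and 72.5 and 65.1 in D3TA, a log2 difference of 4.41 ± 0.51 (SE) with an adjusted p of 0.00568 in edgeR. The UMIs were 4, 2, 76 and 85, from 1, 2, 6 and 11 cells, and 1 cell gave 37 of the 76 in D3TA replicate 1 and another 46 of the 85 in D3TA replicate 2. Without the highest cell of each library the levels were 0, 0.768, 35.3 and 31.4 CPM. The other passing cells of the D3TA mice averaged 1.70 CPM. With each member thinned to 5000 UMIs the log2 difference was 3.73 (adjusted p = 0.149 in edgeR). The gene lies on chromosome 3 from 18071950 to 18243338 (GRCm38, minus strand).

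Cxcl10, an interferon-induced chemokine that draws in T cells bearing Cxcr3, was also carried by few cells. Its level was 1.44 and 6.25 TMM-scaled CPM in WT and 103 and 49.8 in D3TA, a rise of 4.06 ± 0.58 (SE) in log2 with an adjusted p of 0.0231 in edgeR. It was detected in 1, 2, 6 and 3 cells, and a single cell gave 54 of the 108 UMIs in D3TA replicate 1 and 49 of the 65 in D3TA replicate 2. The call was lost without the cells that Scrublet marked (adjusted p = 0.520) and without the members with monocyte, macrophage or precursor transcripts (adjusted p = 0.444). Ifi204, a DNA-sensing member of the Ifi200 family whose near-identical paralogs may share its reads, behaved alike, at 2.88, 3.91, 38.1 and 29.9 TMM-scaled CPM (3.22 ± 0.51, adjusted p = 0.0438 in edgeR), with 14 of 40 and 27 of 39 D3TA UMIs from 1 cell each. Its adjusted p was 0.630 without the cells marked by Scrublet and 0.0596 without the Ccr7 program members, and without the members with monocyte, macrophage or precursor transcripts it was too low to be tested. With a stricter filter on cells (1000 UMIs, 500 genes, 5% mitochondrial) the adjusted p was 0.0502 for Cxcl10 and 0.0810 for Ifi204.

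The stretch upstream of Cxcl10 and that of Rsad2, an antiviral enzyme also induced by interferon, are shown because both hold the paired GAAA sites through which interferon-activated factors bind. Each is the 250 bases before the start in RefSeq on GRCm38.p6, read 5′ to 3′ along the gene, with the match to GAAANNGAAA (or TTTCNNTTTC, the same on the other strand) in capitals. The first is chr5:92348890-92349139, minus strand, and the second chr12:26456453-26456702, minus strand.
Cxcl10: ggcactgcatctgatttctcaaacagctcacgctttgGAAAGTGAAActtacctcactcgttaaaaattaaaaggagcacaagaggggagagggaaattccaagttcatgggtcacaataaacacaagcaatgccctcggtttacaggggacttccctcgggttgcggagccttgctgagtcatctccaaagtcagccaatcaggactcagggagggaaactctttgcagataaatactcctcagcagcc
Rsad2: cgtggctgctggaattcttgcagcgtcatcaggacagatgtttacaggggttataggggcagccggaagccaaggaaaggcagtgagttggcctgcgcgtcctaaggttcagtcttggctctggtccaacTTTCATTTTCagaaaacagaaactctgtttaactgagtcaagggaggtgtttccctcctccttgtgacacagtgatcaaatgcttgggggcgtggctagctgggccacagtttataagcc
The match began 213 bases before the start in Cxcl10 and 120 before it in Rsad2. The motif was in 978 of 32851 windows of that length (2.98%), searched on both strands, and in 13 of the 22 interferon-induced genes on the list that had a window, among them Isg15, Ifit1, Ifit3 and Slfn5. These are matches of letters, and no binding was measured. Rsad2 itself was at 8.65 and 4.69 TMM-scaled CPM in WT and 35.3 and 43.6 in D3TA (2.64 ± 0.47, adjusted p = 0.0758 in edgeR), and 1 cell gave 28 of 37 UMIs in D3TA replicate 1 and another 49 of 57 in D3TA replicate 2.

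Hist1h2ae, a replication-dependent histone H2A gene with near-identical copies, was the only gene to fall that was not far below the level of other cells. It stood at 251 and 147 TMM-scaled CPM in WT and 35.3 and 31.4 in D3TA, a log2 difference of -2.56 ± 0.35 (SE) with an adjusted p of 0.0178 in edgeR. Cells with the transcript numbered 14, 10, 11 and 10, so the difference lay mainly in the amount per positive cell: the highest cells held 39 and 72 UMIs in WT and 19 and 30 in D3TA. With members thinned to 5000 UMIs it was -2.03 (adjusted p = 0.285 in edgeR).

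**Figure D4:**
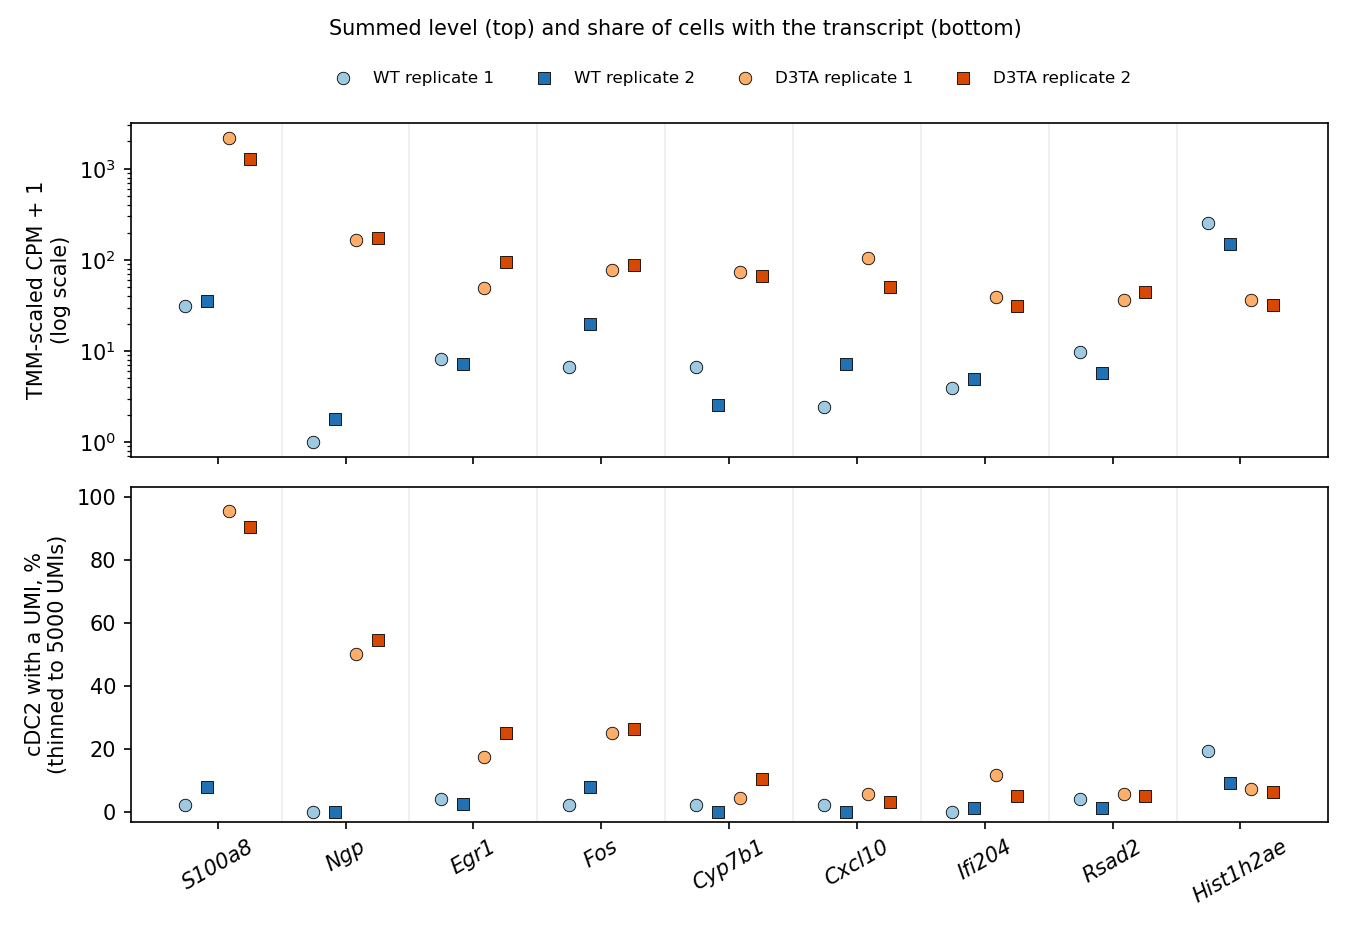
Top, summed level of 9 genes in cDC2 of each library (TMM-scaled CPM + 1, log scale); bottom, percent of cDC2 with at least 1 UMI after thinning to 5000 UMIs. S100a8 and Ngp are found in most D3TA cDC2, Egr1 and Fos in 17.6 to 26.3%, and Cyp7b1, Cxcl10 and Rsad2 in few cells despite a summed level that is clearly higher in both D3TA libraries.

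Interferon-induced genes leaned upward as a list, by different cells in the 2 D3TA libraries. All 26 listed genes tested had a log2 difference above 0, with a median of 1.09 against 0.02 over all genes, 11 had both D3TA libraries above both WT libraries (42.3%), none had both below, and only Ifi204 was called, Cxcl10 not being on the list. Summed over the list, cDC2 held 1176 and 1465 CPM in WT and 2996 and 1607 CPM in D3TA. D3TA replicate 1 was high and D3TA replicate 2 lay just above WT. The D3TA replicate 1 signal was broad, since 46 of its 68 thinned members held 10 or more UMIs of the list, against 19 of 95 in D3TA replicate 2 and, in the WT replicates, 5 of 46 and 19 of 76. In D3TA replicate 2, 1 cell gave 434 of 2017 UMIs, and without the highest cell of each library the sums were 1104, 1345, 2724 and 1284 CPM.

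That cell of D3TA replicate 2 held 49 of the 57 Rsad2 UMIs of its library, 114 of the 132 of Cxcl9, 49 of the 65 of Cxcl10, 34 of the 60 of Irf7 and 27 of the 39 of Ifi204. It also held 4 of the 13 UMIs of Fcgr1, and the highest cell of D3TA replicate 1 held 6 of 19. Fcgr1 is among the genes that marked the members with monocyte or macrophage transcripts described above, so both cells belong to them. Cxcl9, a chemokine close to Cxcl10, was at 4.33, 28.9, 165 and 101 TMM-scaled CPM (log2 difference 2.83 ± 0.54, adjusted p = 0.112 in edgeR). Irf7, the factor that amplifies type I interferon, was at 13, 17.2, 61.0 and 45.9 (1.78 ± 0.37, adjusted p = 0.138). Zbp1, a nucleic acid sensor, showed the contrast of the libraries: it was detected in 13.8% and 26.6% of WT members and in 68.6% of D3TA replicate 1 but 17% of D3TA replicate 2. The list's median was 0.22 without D3TA replicate 1 and 0.54 without the members with monocyte, macrophage or precursor transcripts.

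Genes of antigen presentation differed between libraries more than between genotypes. The 17 MHC class I pathway genes all had a log2 difference above 0 with a median of 0.36, but only 1 had both D3TA libraries higher and none was called. The sums were 6367 and 8183 CPM in WT and 10737 and 6442 CPM in D3TA, so D3TA replicate 1 was high and D3TA replicate 2 lay within WT, and without D3TA replicate 1 the median was -0.19. Tap1, a peptide transporter chain, was at 95.1, 138, 256 and 122 TMM-scaled CPM. The 18 class II pathway genes had a median of 0.05, 2 with both D3TA libraries higher and 2 with both lower, and summed to 28343, 36533, 36340 and 29017 CPM, with the groups fully overlapping.

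The cDC2A and cDC2B lists leaned in opposite directions, with no gene called in edgeR. Of 12 cDC2A genes tested, 9 were below 0, 5 with both D3TA libraries lower (41.7%), and the median was -0.18. Dtx1 was at 140 and 134 TMM-scaled CPM in WT and 69.6 and 65.8 in D3TA (-1.02 ± 0.27, adjusted p = 0.394), and Esam at 23.1, 15.6, 2.86 and 10.7 (-1.40 ± 0.60, adjusted p = 0.855). Adam19, a membrane metalloproteinase, was at 239, 155, 43.9 and 119 (-1.26 ± 0.43, adjusted p = 0.642). Of 11 cDC2B genes tested, 9 were above 0, 6 with both D3TA libraries higher (54.5%), and the median was 0.56. The cDC2B list summed to 988 and 1847 CPM in WT and 1708 and 1941 CPM in D3TA cDC2, with overlap. In the other passing cells it summed to 488 and 483 CPM in WT and 4297 and 2283 CPM in D3TA. For 7 of the 11 genes the level in the higher group was at least 0.5 times that of the other passing cells. The part of free RNA was not tested. Ccr2 was at 4.33 and 71.9 TMM-scaled CPM in WT and 89.6 and 145 in D3TA (1.5 ± 0.68, adjusted p = 0.929), where WT replicate 1 stood far below the rest, and the median of the list was 0.15 without that library.

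The maturation list was lower in D3TA by its median, -0.62, with none of its 18 tested genes called. Both D3TA libraries were below both WT libraries for 10 of them (55.6%) and above for 1. Il4i1 was at 136 and 178 TMM-scaled CPM in WT and 62.0 and 64.3 in D3TA (-1.32 ± 0.29, adjusted p = 0.174 in edgeR), and Fscn1, the actin bundler of migrating dendritic cells, at 73.5, 119, 46.7 and 27.6 (-1.40 ± 0.36, adjusted p = 0.373). Socs2, an inhibitor of cytokine signals, was at 28.8, 53.2, 13.4 and 16.8 (-1.46 ± 0.42, adjusted p = 0.488). Ccr7 itself was at 41.8, 64.9, 47.7 and 36.7 and the groups overlapped. The Ccr7 program cells numbered 4 and 9 in WT and 2 and 3 in D3TA, and without those 18 cells the median of the list was -0.22.

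Chaperones of the heat shock response were all above 0. Both D3TA libraries were higher for 8 of the 12 tested (66.7%), none was called, and the median was 0.47. The list summed to 2416 and 2758 CPM in WT and 3565 and 2978 CPM in D3TA cDC2, and 1 cell gave 472 of the 3989 UMIs of D3TA replicate 1. Its sum was likewise higher in both D3TA libraries in cDC1 (3741, 3760, 5332 and 4038 CPM) and in the monocyte gate (3226, 3302, 5054 and 4972 CPM). The same held in the other passing cells (2855, 2573, 3248 and 2970 CPM). Hspa1a, an inducible Hsp70 gene whose near-identical neighbour is Hspa1b, was at 26 and 38.3 TMM-scaled CPM in WT and 104 and 108 in D3TA (1.69 ± 0.31, adjusted p = 0.0971 in edgeR), and Hspa1b at 50.5, 52.4, 121 and 246 (1.83 ± 0.37, adjusted p = 0.133). The list's median was 0.22 without the members with monocyte, macrophage or precursor transcripts. Of 6 mitochondrial and other genes listed as signs of stress or poor RNA quality, none was called and 5 were below 0 with a median of -0.16, among them mt-Cytb at 2630, 2442, 2083 and 2153 TMM-scaled CPM.

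Proliferation genes were lower in D3TA by their median, with no gene called. The 25 G2/M genes had a median of -0.45, 12 with both D3TA libraries lower (48.0%) and 3 with both higher, and the 25 S phase genes a median of -0.34, 7 lower (28%) and 1 higher. Nusap1, a spindle protein, was at 89.4, 71.2, 28.6 and 29.1 TMM-scaled CPM (-1.46 ± 0.31, adjusted p = 0.151 in edgeR), and Top2a, a topoisomerase of dividing cells, at 241, 199, 129 and 118 (-0.83 ± 0.27, adjusted p = 0.592). Cdc20, an activator of the anaphase-promoting complex, lay the other way at 8.65, 7.82, 25.8 and 19.9 (1.47 ± 0.46, adjusted p = 0.540). The highest cell of a library held 21.0 to 41.0% of the G2/M UMIs, and among members with Cd209a or Clec10a alone the median was 0.62.

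The mutated gene and its partners did not pass the test in cDC2. Ccnd3, which encodes cyclin D3, was at 395 and 288 TMM-scaled CPM in WT and 359 and 351 in D3TA, a log2 difference of 0.06 ± 0.28 (SE) with an adjusted p of 0.9995 in edgeR, and both D3TA libraries lay between the WT libraries. The counts do not separate the mutant from the normal allele, so they check no label. Ccnd1, another D-type cyclin, was at 855, 733, 652 and 761 (-0.17 ± 0.28) and Ccnd2 at 87.9, 79.0, 171 and 65.8 (0.50 ± 0.41). Their kinase Cdk4 was at 63.4, 61.0, 75.3 and 34.4 (-0.19 ± 0.38), and Cdk6, the other kinase, at 53.3, 36.7, 120 and 73.5 (1.12 ± 0.35, adjusted p = 0.525), with 81 of the 126 Cdk6 UMIs of D3TA replicate 1 in 1 cell.

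**Figure D5:**
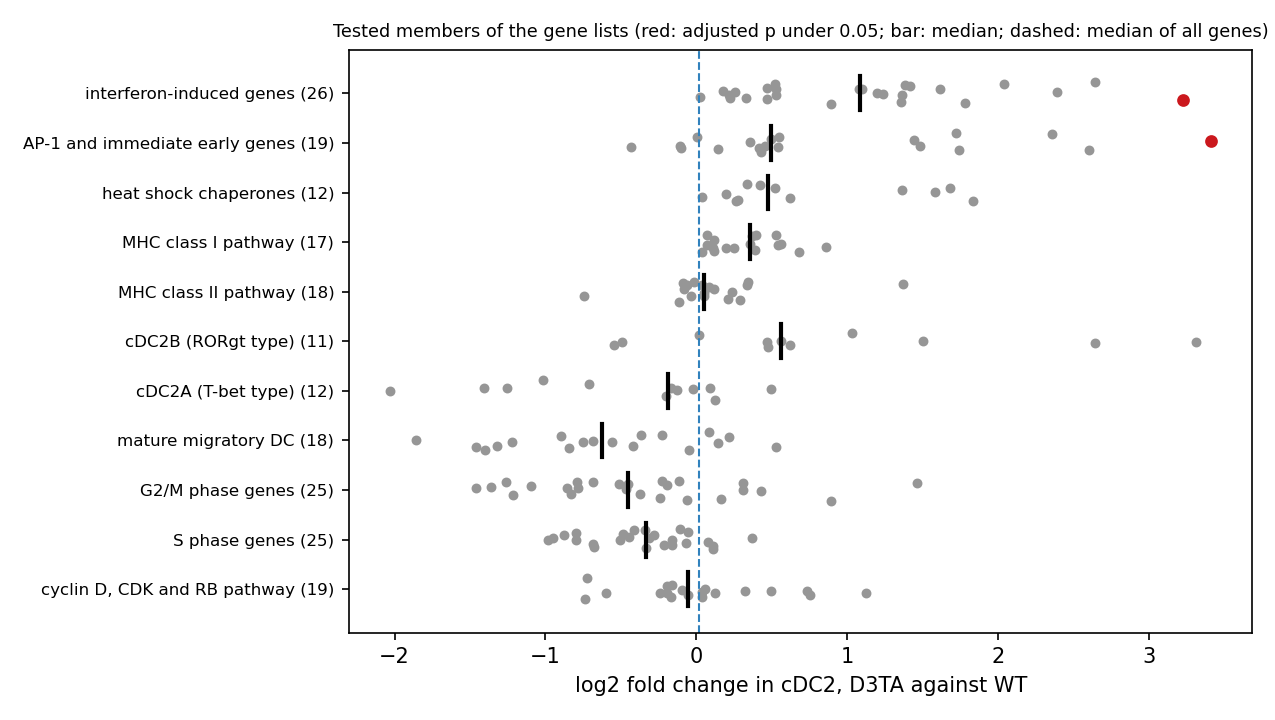
Log2 fold change in cDC2, D3TA against WT, for each tested gene of the lists shown (number tested in parentheses), with the list's median and a dashed line at the median of all genes tested, 0.02. Interferon-induced genes lie to the right with a median of 1.09 and maturation genes to the left with a median of -0.62.

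Genes of other cell classes in cDC2 gave these values beside the lists. The B cell markers were all below 0 (10 of 10, median -0.82, none called) and summed to 952 and 5674 CPM in WT and 835 and 1251 in D3TA, or 3.35 to 12.5% of the other passing cells. Cd79a, Ebf1, Pax5 and Ms4a1 of this list are limited by the rule, so these values are partly set by it. Monocyte markers summed to 483 and 760 CPM in WT and 997 and 1062 CPM in D3TA, with no overlap. Of 12 tested, 7 had both D3TA libraries higher (58.3%) and 2 had both lower, 1 (Chil3) was called, and the median was 0.45. Fcgr1 had 0, 0, 19 and 13 UMIs and Ly6c2, of classical monocytes, 1, 14, 109 and 56. These markers moved with the cDC2B list, with which they share Ccr2, Cx3cr1, Csf1r and Ly6c2. Without the members with monocyte, macrophage or precursor transcripts the median was 0.15 for the monocyte markers and 0.47 for the cDC2B list. Red pulp macrophage markers summed to 118 and 156 CPM in WT and 197 and 194 CPM in D3TA, also with no overlap, and T cell markers to 148 to 205 CPM, with overlap. Their part in the results was not tested.

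Whether the genotype difference in cDC2 differed from that in cDC1 was tested as the interaction of class and genotype, with the library as a block. edgeR called 0 of 9474 genes (0%), with 683 (7.21%) at an unadjusted p under 0.05, and DESeq2 called 14. On simulated counts of the same depth this test found 26% of 4-fold and 2% of 2-fold differences, so most differences of either size would be missed. Only genes with a mean of at least 20 CPM were changed in that simulation. The count of 0 therefore does not show that the genotype difference was alike in the 2 classes.

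Against the monocyte gate the same test called 918 of 10007 genes (9.17%), 495 with the D3TA minus WT difference higher in cDC2 (4.95%) and 423 lower (4.23%). Genes were named only where the genotypes did not overlap in cDC2. The 6 named on the upper side were interferon-induced genes that were higher in D3TA than WT by value in cDC2 and lower in D3TA monocytes. Ifit3, which supports antiviral signalling, was at 14.4 and 12.1 CPM in WT and 42.0 and 25.5 in D3TA cDC2, and at 91.4, 75.6, 4.97 and 1.55 CPM in the monocyte gate, an interaction of 6.01 ± 0.49 in log2 (adjusted p = 0.000106 in edgeR). Without the member of each library with most UMIs of the interferon list, Ifit3 was at 14.8 and 9.91 CPM in WT and 25.4 and 8.11 in D3TA cDC2, and the groups overlapped. Slfn5, an interferon-induced Schlafen gene, had an interaction of 3.81 ± 0.32 (adjusted p = 0.000143). On the lower side were histone and dividing-cell genes, such as Hist1h2ap at 250, 95.1, 41.1 and 35.1 CPM in cDC2 and 18.7, 25.8, 741 and 621 CPM in the monocyte gate (-6.84 ± 0.43, adjusted p = 7.11e-05).

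The monocyte gate did not hold the same cells in both genotypes. It took 53 and 57 cells in WT and 278 and 143 in D3TA. Ace, a marker of nonclassical monocytes, was at 347, 232, 19.5 and 41.5 CPM there, Ly6c2 of classical monocytes at 508, 682, 2197 and 1593 CPM, and the precursor gene Elane at 0, 3.44, 1705 and 1854 CPM. A change of the cells within the gate and a change of expression cannot be told apart in this comparison.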

How the data were processed

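The deposited counts are whole numbers of UMIs per gene and cell barcode that the authors made on mm10, per the submitters' processing notes. Per the file headers, Cell Ranger 7.0.1 wrote them. Not given in the sources used here were the annotation release, the treatment of intronic reads and any removal of doublets. From these counts the cells were filtered and taken by the rule given at the start (Python 3.11.15, scanpy 1.11.5). The members, gene lists and rules were chosen with earlier results of these data known.

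UMIs were summed over the members of each library and tested with edgeR 4.0.16 in R 4.3.3 (filterByExpr, TMM, glmQLFit and glmQLFTest, two-sided, Benjamini-Hochberg adjustment over all genes tested), with DESeq2 1.42.0 as an alternative. Shares were tested by exact permutation over libraries with scipy 1.17.1. A monocyte was gated by Csf1r, at least 2 of 8 monocyte genes and under 3 UMIs of macrophage genes. The 8 were Ly6c2, Ccr2, Fcgr1, F13a1, Vcan, Cx3cr1, Treml4 and Ace, which like Csf1r are on the monocyte marker list. Tested on simulated data, the cDC2 fit over 8714 genes called 72% of the 4-fold changes but 5% of those of 2-fold.

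Named genes were, in each direction, those called with no overlap of the groups, a mean of at least 20 CPM and a level in the higher group at least 0.5 times that of the other passing cells of that group (below it, free RNA was held possible). To these were added the 4 genes of smallest p of each list, the genes of the gate, and the D-type cyclins with Cdk4 and Cdk6. From an interaction test came the 6 called genes of smallest p per direction under like limits, with no overlap of the genotypes in cDC2. Zbp1, Ccr7, Retnlg and Mmp8, with the genes that describe the sets of members, were chosen after their values were seen, as were the crossed block, the thinning to 5000 UMIs and the fits without Ccr7 program members or without members with monocyte, macrophage or precursor transcripts. Thinning draws the same number of UMIs from every cell and leaves out shallower cells: 12, 3, 2 and 5 members fell below 5000 UMIs. Gene positions are from GENCODE vM21 on GRCm38, and upstream sequences from RefSeq. Ifi204 and Cyp7b1 are named without one.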

Additional observations from a re-analysis of the deposited data

Results flagged for a closer look

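The genotype difference in cDC2 differed from that in the monocyte gate, by the test of the interaction itself, for 918 genes in edgeR, and the make-up of that gate differed between genotypes, as given above. On the side where the D3TA minus WT difference was higher in cDC2, the 6 named genes were interferon-induced, with interactions of 6.01 for Ifit3, 3.81 for Slfn5, 4.88 for Ifi204, 5.63 for Rsad2, 5.05 for Ifit2 and 6.57 for Cxcl10 in log2. Rsad2 was at 8.67 and 4.53 CPM in WT and 33.1 and 45.4 CPM in D3TA cDC2, and at 110, 55.0, 11 and 8.54 CPM in the monocyte gate. Ifi204 was at 2.89, 3.78, 35.7 and 31.1 CPM in cDC2 and at 276, 272, 90.5 and 92.7 CPM in the monocyte gate, so the order of the genotypes was opposite in the 2 classes for both genes as counted. For Rsad2 that order rested on 1 cell in each D3TA library: without the member with most UMIs of the interferon list, cDC2 held 8.87 and 4.58 CPM in WT and 8.16 and 6.49 CPM in D3TA, with overlap. Ifi204 was then at 2.96, 3.81, 23.6 and 9.73 CPM, with no overlap.

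On the other side the 6 named genes were histones and genes of dividing cells, with interactions of -6.84 for Hist1h2ap, -7.15 for Hist1h2ae, -8.64 for Nusap1, -9.96 for Hist1h3c, -5.31 for Hist1h4d and -3.96 for Tuba1b. Nusap1 and Hist1h3c were at 0 and 1.72 CPM in the WT monocyte gate, so the size of their interactions depends on the prior count and is no bound. Tuba1b, an alpha tubulin, was at 332, 284, 230 and 180 CPM in cDC2 and at 46.9, 67.0, 617 and 629 CPM in the monocyte gate. The histone genes have near-identical copies that can share reads.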

How the results depend on the processing

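The number of genes called in cDC2 depended strongly on the settings, and not all settings kept the 16 called genes. All 16 were called again by DESeq2 (32 genes), without the filter on low counts (216), and with each library left out (89 without WT replicate 1, 113 without WT replicate 2, 141 without D3TA replicate 1 and 684 without D3TA replicate 2, the lone library then being assumed to vary like the other group). Whether the libraries' replicate numbers pair the mice could not be decided. Deviations from the group means correlated at -0.158 within a number, and with 2 libraries per genotype the crossed pairing can only give the same value with the opposite sign. With the number as a replicate block 111 genes were called, and with the crossed pairing 71. With stricter cell filters 12 genes were called, without Cacna1e, Cxcl10, Ifi204 and Mmp8, and without the cells marked by Scrublet 11, without Retnlg as well. Other members gave 25 genes (at least 3 of the 5 genes of the rule, all 16 among them), 7 (Cd209a or Clec10a only, 6 of the 16) and 8 (thinned to 5000 UMIs, all 8 neutrophil or monocyte genes), and 4 remained when genes of possible free RNA were left out, Cxcl10, Cyp7b1, Egr1 and Hist1h2ae. Egr1 lost its call with thinning to 5000 UMIs (adjusted p = 0.149) and among members with Cd209a or Clec10a (adjusted p = 0.128).

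For the difference from cDC1 the count was 300 without the filter on low counts, 14 in DESeq2 and 0 to 50 with 1 library left out (50 without WT replicate 2, 2 each without WT replicate 1 and D3TA replicate 2). For the difference from the monocyte gate it was 429 without the library block, 561 in DESeq2 and 391 to 690 with 1 library left out (431 without WT replicate 1, 571 without WT replicate 2, 391 without D3TA replicate 1). The difference in the cycling share, D3TA minus WT, was 13.5 percentage points not thinned and 4.72 at 5000 UMIs, against -4.05 at 1000, and that in the share of passing cells -0.00748 with cells thinned to 2000 UMIs against 0.107. With 1 library left out these 2 ran from -4.84 to -3.27 and from -0.266 to 0.480, the cDC2 share of conventional dendritic cells from -17.3 to -1.55, the cDC2A share from -5.90 to 1.14, the cDC2B share from 5.90 to 11.3 and the Ccr7 share from -4.11 to 0.460.

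Of the genes that were never called, Ccnd3 reversed to -0.40 among members with Cd209a or Clec10a and to -0.011 without the Ccr7 program members, and Cdk4 to 0.018 among members with Cd209a or Clec10a. With 1 library left out Ccnd2 ran from -0.33 to 1.01, Ccnd3 from -0.16 to 0.27 and Cdk4 from -0.85 to 0.25. Depth limits the rest: a library's cDC2 held 692177 to 1324348 UMIs, and at that depth few 2-fold changes were found in simulated data.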
